A study of Mus musculus with 56 samples.

Results

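Long intergenic noncoding RNAs (lincRNAs) were followed through pregnancy-induced thymic involution and postpartum regeneration in sorted cortical and medullary thymic epithelial cells (cTECs and mTECs). A lincRNA was counted as expressed when its mean FPKM (fragments counted, scaled by exon length and library size) reached 2 over the 28 cTEC samples or over the 28 mTEC samples. Of the 4460 genes that GENCODE M21 types as lincRNA among the 50600 genes quantified, 141 were selected on this level. The mean reached 2 in both cell types for 83 of them, in cTECs only for 21 and in mTECs only for 37. Levels in the 2 cell types therefore chose the members and are described without a test, while changes over time were not used in the choice. Just inside the limit, the higher mean was 2.02 for Gm26510, 2.10 for Gm9898 and 2.14 for Gm10827. Just outside it, the value was 1.99 for B230208H11Rik, 1.97 for Gm3764 and 1.96 for Gm43254. For 13 members the limit was reached only through the single highest sample.

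All mice were B6.SJL females (B.6SJL-Ptprca Pep3b/BoyJ-CD45.1), and each sample was sorted from 1 mouse after digestion of the thymus with papain, DNase and collagenase IV. TECs were taken as EpCAM+ CD45- cells and divided by the lectin UEA1 into cTECs (UEA1-) and mTECs (UEA1+). Non-pregnant controls (NPC) were age-matched, and D-2 mice were at day 18 of gestation. The pregnant females had been mated with BALB/cJ males, and their pups were removed at birth (D0), so that regeneration was not delayed by lactation. Of the 16 time points, 6 (NPC, D-2 and, after birth, D0, D3, D6 and D12) had 3 samples per cell type, and the other 10, which fill the days up to D28, had 1, with early regeneration defined as D0 to D12 (18 samples) and late regeneration as D16 to D28 (4 samples).

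LincRNAs are transcribed from the DNA between protein-coding genes, mostly by RNA polymerase II, and many are capped, spliced and polyadenylated without encoding a protein. Some act in the nucleus: Malat1 accumulates in nuclear speckles, Neat1 is the scaffold around which paraspeckles assemble, and Xist coats and silences the inactive X chromosome of female cells. Others carry small RNAs, either microRNA hairpins cut out by Drosha or small nucleolar RNAs released from introns of the Snhg family. The library kit selected polyadenylated RNA, so a transcript end without a poly(A) tail is captured poorly.

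The microRNAs inside the members are shown first, because for these lincRNAs the mature product is known. In RefSeq, 11 microRNA genes with 18 mature microRNAs lay within 10 members, and for 7 of these hosts the hairpin overlapped an exon. No 2 of the 18 mature microRNAs shared a seed (bases 2 to 8, in capitals below). The following come from the hosts with the best known products (RefSeq, GRCm38.p6, 5′ to 3′).
mmu-miR-205-5p, exon of 4631405K08Rik, chr1:193507503-193507524, minus strand: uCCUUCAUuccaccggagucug
mmu-miR-142a-5p, intron of Mir142hg, chr11:87756867-87756887, plus strand: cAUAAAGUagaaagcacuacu
mmu-miR-142a-3p, intron of Mir142hg, chr11:87756903-87756925, plus strand: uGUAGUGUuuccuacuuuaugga
mmu-miR-675-5p, exon of H19, chr7:142577112-142577133, minus strand: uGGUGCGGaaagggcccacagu
mmu-miR-101a-3p, exon of E130102H24Rik, chr4:101346957-101346977, minus strand: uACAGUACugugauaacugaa
mmu-miR-374b-5p, intron of Ftx, chrX:103573112-103573133, minus strand: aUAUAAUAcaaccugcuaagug
mmu-miR-770-5p, exon of Meg3, chr12:109563710-109563731, plus strand: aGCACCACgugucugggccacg
The remaining hosts were 2900076A07Rik (Mir1839), 6030407O03Rik (Mir6351), Gm37233 (Mir5103) and Snhg20 (Mir6516). Mature microRNAs are too short for these libraries and were not measured.

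The annotated 3′ ends of the nuclear lincRNAs are shown because poly(A) selection acts there. Below are the last 60 bases of the GENCODE M21 transcript on GRCm38, with a poly(A) signal (AATAAA or ATTAAA, searched on the transcript strand) in capitals where one was found.
Malat1, 6983-base transcript, chr19:5795690-5795749, minus strand: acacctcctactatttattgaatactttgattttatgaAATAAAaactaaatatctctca
Neat1, 20771-base transcript, chr19:5824708-5824767, minus strand: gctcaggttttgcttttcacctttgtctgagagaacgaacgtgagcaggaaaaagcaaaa
Xist, 17946-base transcript, chrX:103460366-103460425, minus strand: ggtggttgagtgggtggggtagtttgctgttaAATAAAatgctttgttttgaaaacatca
The long Neat1 transcript held neither hexamer in this window, but of the 4 annotated Neat1 transcripts at least 1 did. Whether any of these ends carries a poly(A) tail in these cells was not measured. Over all annotated transcripts of a gene, the signal was found for 91 of the 141 members (64.5%), for 43.6% of the 4319 other lincRNAs and for 81.7% of 21764 protein-coding genes. Members had a median of 2 annotated transcripts, the other lincRNAs 1 and protein-coding genes 4, and more transcripts give more windows in which a hexamer can be found.

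The members lay close to protein-coding genes. The nearest one was within 5 kb for 66 members (46.8%), against 22.9% of the other lincRNAs, and 24 members (17.0%) started head to head within 1 kb of a protein-coding gene, against 6.02%. The exons of 37 members overlapped an exon of another gene on the opposite strand (26.2% against 12.9%), and those of 21 overlapped one on the same strand (14.9% against 2.48%). Reads in such overlaps can be assigned to either gene, in the first case only if the counting did not use the strand. The library kit keeps the strand, and whether the counting used it is not given in the sources used here. A single exon block made up 23 members (16.3%, against 6.53%). The exonic length had a median of 1882 bases against 1040.

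A RefSeq promoter (250 bases before to 50 after the start) was matched for 77 members. CpG-rich promoters, with a GC content of at least 50% and an observed over expected CpG ratio of at least 0.6, belonged to 33 of them (42.9%), to 9.32% of 1567 other lincRNA promoters, to 47.5% of 16469 protein-coding ones and to 34.1% of all 27025. Among the 16 promoters of head-to-head members 12 were CpG-rich (75.0%), and among the other 61 it was 21 (34.4%). A CpG-rich and a CpG-poor example are shown for a pair of members with higher levels in mTECs, with each CpG in capitals.
AU020206, GRCm38.p6, chr7:75782071-75782370, minus strand: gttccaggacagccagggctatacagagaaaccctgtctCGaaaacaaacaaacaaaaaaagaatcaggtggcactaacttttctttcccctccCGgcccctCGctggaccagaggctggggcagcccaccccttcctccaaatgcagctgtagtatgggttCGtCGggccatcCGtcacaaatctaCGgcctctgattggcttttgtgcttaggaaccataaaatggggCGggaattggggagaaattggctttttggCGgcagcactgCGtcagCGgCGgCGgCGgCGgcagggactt
Gm14275, GRCm38.p6, chr2:172287990-172288289, plus strand: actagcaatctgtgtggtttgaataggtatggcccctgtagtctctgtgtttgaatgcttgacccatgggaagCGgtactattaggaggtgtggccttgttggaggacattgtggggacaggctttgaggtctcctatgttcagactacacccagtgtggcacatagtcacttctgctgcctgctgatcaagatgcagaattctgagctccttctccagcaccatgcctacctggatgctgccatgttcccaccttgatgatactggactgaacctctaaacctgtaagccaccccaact
The promoter of AU020206 held 15 CpGs (GC 55.7%, observed over expected 0.646). That of Gm14275 held 1 (GC 50.3%, ratio 0.0526).

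Some members shared long stretches of near-identical sequence with other genes. For 21 members, at least 50% of a transcript matched a gene elsewhere in the annotation at 95% identity or more, and for 12 of them a protein-coding gene was among the matches. Gm10076 matched Rpl41, a ribosomal protein gene, over 100% of its length at 98.96% identity. Gm12840 and Gm20186, on chromosomes 4 and 6, aligned over 463 bases with 449 identical (96.98%). The stretch below was taken as the first without a gap that held a difference, with its 1 difference in capitals (GENCODE M21, transcript strand). A read inside it can be placed only by that base. The aligned bases are part of transcripts of 741 bases (Gm20186) and 627 bases (Gm12840), and the stretch does not stand for their whole length.
Gm20186, transcript bases 194 to 313: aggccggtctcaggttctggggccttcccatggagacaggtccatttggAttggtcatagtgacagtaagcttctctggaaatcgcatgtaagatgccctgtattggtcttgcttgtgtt
Gm12840, transcript bases 166 to 285: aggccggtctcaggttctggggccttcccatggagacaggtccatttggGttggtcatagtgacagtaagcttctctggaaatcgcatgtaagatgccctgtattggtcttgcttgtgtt
Gm42418, the most abundant member, overlapped annotated ribosomal RNA on the opposite strand. Of Gm43055, 72.2% lay inside exons of Ythdc1, and of Gm26735, 98.8% lay opposite Sox4. A 737-base transcript of Gm20186 was matched over 100% of its length, at 100% identity, by Gm26809, a lincRNA that overlaps it on the genome. Levels of these members are given as the authors' counting assigned them.

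Libraries of cTECs held 6470058 to 44409018 expected counts and those of mTECs 4561207 to 108547384. Members took 0.462% to 5.56% of the counts of a cTEC library and 0.640% to 4.37% of an mTEC library, mostly through Gm42418 and its neighbour Gm26917. Summed FPKM of 11 mTEC markers was 10613 to 20051 in mTECs and 3689 to 8145 in cTECs. The sum of 9 cTEC markers was 1030 to 12053 in cTECs and 481 to 4690 in mTECs, so the cell types overlapped on it, the cTECs at D-2 being lowest (1030 to 1948). Of other cell types, 12 thymocyte markers summed to 25.3 to 413.5 FPKM in cTECs and 20.6 to 99.4 in mTECs, and erythroid and endothelial markers to at most 40.3 and 13.5 in any sample.

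A group of 7 libraries stood apart from the rest. Their FPKM of the mitochondrial large ribosomal RNA mt-Rnr2 was 179 to 396, and it was 727 or more in the other 49. They were cTEC NPC replicate 3, cTEC D6 replicate 3, cTEC D16, cTEC D28, mTEC NPC replicate 3, mTEC D3 replicate 3 and mTEC D16. In both cell types every one of them lay above every other library for Neat1, Xist, AI480526, Gm26532 and the small nucleolar RNA host Snhg12, and below every other library for Tmem250-ps. In cTECs, E130102H24Rik was also higher and Gm26917 lower without overlap. Such separation was counted for the 141 members only, not over all genes, so it is not shown to be particular to lincRNAs. Neat1 was 59.4 to 172.5 FPKM in the 4 cTEC libraries and at most 36.7 in the other 24. In mTECs it was 59.4 to 176 in the 3 libraries and at most 48.2 in the other 25. Xist behaved alike, with 119 to 188 against at most 64.9 in cTECs and 110.3 to 168 against at most 79.9 in mTECs. Malat1 was at 168 to 295 in the 4 cTEC libraries and 190.5 to 1063 in the rest, so the ranges overlapped, with 1 of the 4 below all others. Because late regeneration holds 3 of the 7 libraries among its 8, each comparison below that uses any of them is also given without them. A further 4 libraries, cTEC D20, cTEC D3 replicate 2 and mTEC D3 replicates 1 and 2, had under 14000 genes above 0 FPKM.

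**Figure D1:**
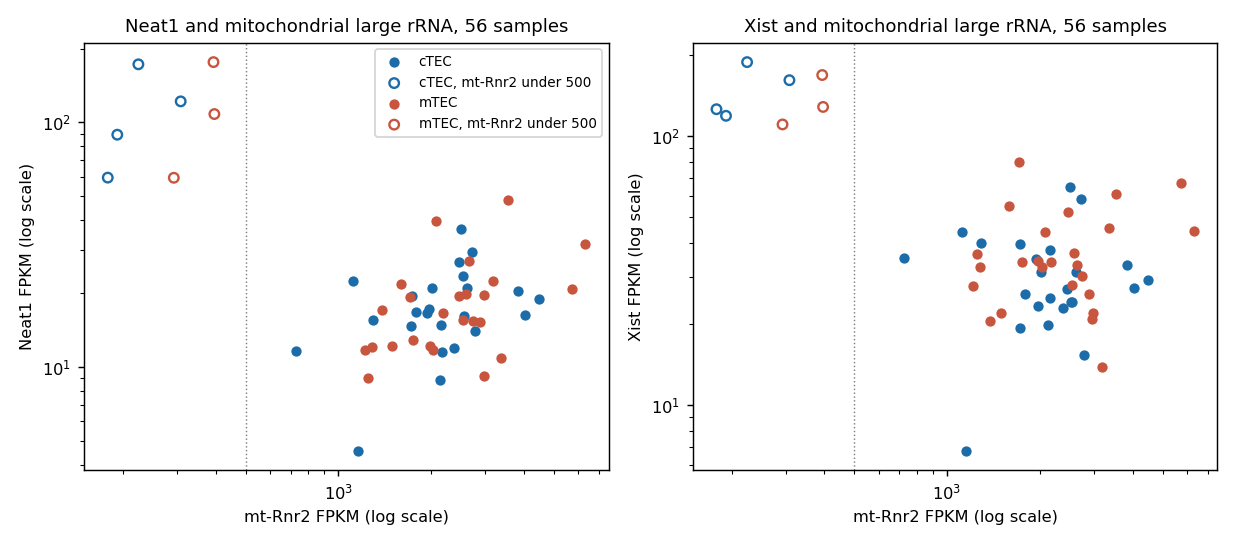
FPKM of Neat1 (left) and Xist (right) against FPKM of mt-Rnr2 in each of the 56 samples, all axes on a log scale. Open circles, left of the dotted line at 500 FPKM, are the 7 libraries at 179 to 396 FPKM of mt-Rnr2, and all 7 lie above the other libraries of their cell type for both lincRNAs.

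Most members were expressed at low levels. Only 5 had a mean of 100 FPKM or more in either cell type and 35 had 10 or more, and the median of the means was 3.39 in cTECs and 3.94 in mTECs. The highest was Gm42418, the gene on ribosomal RNA sequence, at 4755 FPKM in cTECs (lowest 1127, median 3005, highest 29600) and 5608 in mTECs (1894, 3671 and 18655). Malat1, the speckle lincRNA, followed with 388 ± 207 (SD, n = 28) in cTECs and 573 ± 686 in mTECs. Gm10076, the Rpl41-like gene, had 233 ± 102 and 264 ± 108.9, and Gm26917 114 ± 108.9 and 122 ± 92.0. Next in order in cTECs were 1810058I24Rik (81.1 FPKM), Tmem250-ps (71.0), 2900097C17Rik (62.5), Gm20186 (61.5), Gm12840 (58.2) and Xist (47.6). With SDs of 18.0 to 44.8 over the samples, neighbours in this order did not differ beyond their spread. In mTECs the order below the leading genes was AU020206 (65.8), 1810058I24Rik (62.8), Tmem250-ps (48.5), Xist (47.8) and 2900097C17Rik (46.4), and Gm42031 stood at 154 ± 161.

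**Figure D2:**
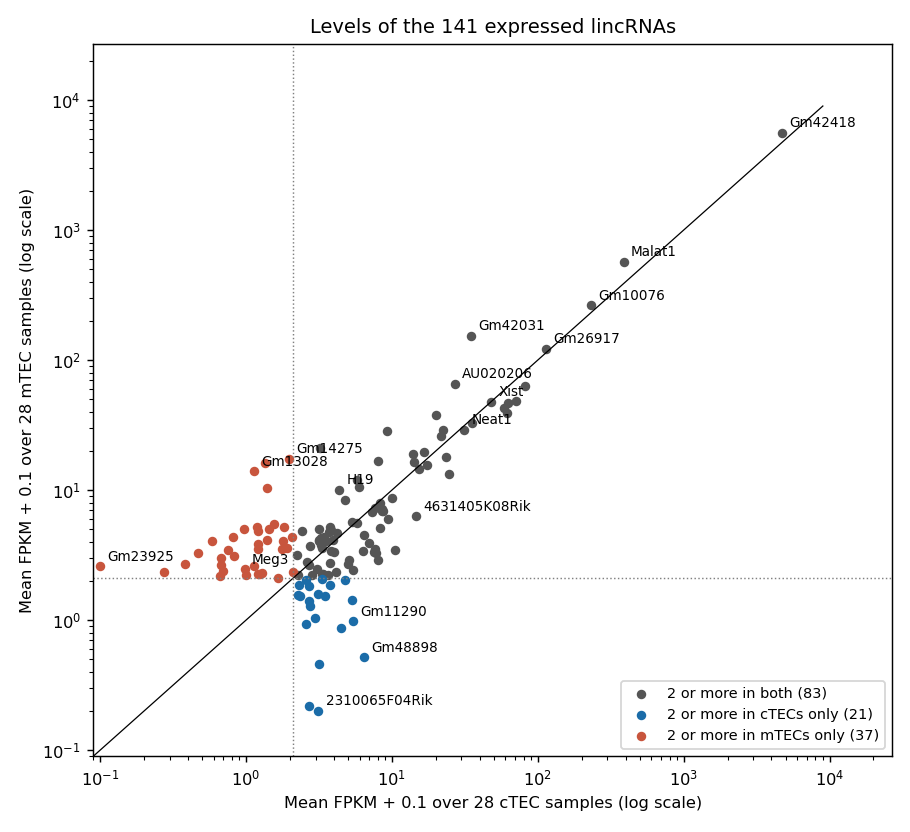
Mean FPKM + 0.1 of each of the 141 lincRNAs over the 28 cTEC samples (x axis) and the 28 mTEC samples (y axis), both on a log scale, with the line of equal levels in black and the limit of 2 FPKM dotted. Colours show in which cell type the limit was reached, and most of the highest members lie near the line of equal levels.

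Between cell types, 39 members were at least 2-fold higher in mTECs and 20 in cTECs (ratio of means, 0.1 FPKM added to each), and 17 and 6 were at least 4-fold higher. Every mTEC sample lay above every cTEC sample for Gm13391 and Gm43042, and the converse was found for no member. These counts were not made over all genes, so they are not shown to be particular to lincRNAs. The limit was reached in mTECs only for 37 members and in cTECs only for 21, so the selection itself favours such differences. The levels of Gm13391, a lincRNA known only by its clone name, were 7.37 to 41.4 FPKM in mTECs (median 14.5) and 0 to 4.48 in cTECs (median 0.885). Those of Gm43042 were 9.10 to 45.2 in mTECs and 0 to 7.90 in cTECs. AU020206, which had the CpG-rich promoter above, was nearly as separate, with 27 of 28 mTEC samples above all cTEC samples (34.6 to 103.7 against 17.4 to 37.7).

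The highest mTEC to cTEC ratios belonged to Gm23925, Gm13028, Gm13391, Gm14275, Gm20465 and Gm29461. Gm23925, a 132-base transcript contained in the snoRNA host Snhg17, was at 0 in 26 mTEC samples, at 67.0 in D3 replicate 2 and at 3.22 in D6 replicate 2, so its mean rests on 1 library with few genes. Gm13028 had a mean of 13.9 FPKM in mTECs against 1.04, Gm14275 17.4 against 1.86, Gm29461 10.4 against 1.29 and Gm20465 2.24 against 0.174. Gm20465 was also above the limit only through its highest sample.

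At the other end were 2310065F04Rik (3.04 FPKM in cTECs against 0.102 in mTECs), Gm48898 (6.37 against 0.417), Gm47775 (2.60 against 0.119, with 29.1 in D3 replicate 2 and a mean of 1.62 without it), Gm44956 (3.09 against 0.364), Gm11290 (5.31 against 0.881) and Halr1 (4.41 against 0.764). For 2310065F04Rik, 26 of 28 cTEC samples were above all mTEC samples, which reached 0.67 at most. Halr1 lies in the Hoxa region of chromosome 6. Gm11290 lies on the opposite strand to Prss16, the thymus-specific serine protease that marks cTECs, with a gap of 4726 bases between the genes. Gm11290 had its highest cTEC value, 56.6 FPKM, in D3 replicate 2, a library with few genes (the next was 9.69). Prss16 itself had a mean of 1714 FPKM in cTECs and 183 in mTECs.

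The microRNA hosts differed in their balance. 4631405K08Rik, which holds Mir205, a microRNA of epithelia, was at 14.6 ± 5.01 FPKM in cTECs (lowest 6.30, highest 25.7) and 6.20 ± 2.83 in mTECs (0.37 to 12.1). H19, an imprinted growth-related lincRNA that holds Mir675, was at 4.25 ± 6.58 in cTECs and 9.96 ± 5.75 in mTECs, and its cTEC mean includes 36.3 in D3 replicate 2, a library with few genes. 6030407O03Rik had 9.11 ± 5.68 and 28.5 ± 14.1. Below these, Meg3, the maternally expressed imprinted lincRNA, had 0.878 ± 0.961 and 2.38 ± 3.53, Ftx, which lies beside Xist in the X-inactivation centre, 2.20 ± 1.77 and 1.76 ± 1.47, and Mir142hg, the host of the blood-cell microRNA miR-142, 3.05 ± 3.24 and 3.94 ± 6.34. For the last 3 the SD was close to or above the mean.

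Of the Snhg family, Snhg12 was at 35.4 ± 15.4 FPKM in cTECs and 33.0 ± 15.4 in mTECs, Snhg6 at 7.99 ± 4.43 and 16.7 ± 10.6, Snhg18 at 7.43 ± 3.82 and 3.26 ± 1.71, and Snhg20 at 3.37 ± 4.29 and 1.42 ± 2.10. Lockd, named for its place downstream of Cdkn1b, had 2.61 ± 2.68 and 2.56 ± 2.60, and Bvht, known from heart development, 3.05 ± 2.81 and 4.04 ± 3.47.

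Nearest protein-coding genes were compared with the members as a description over 121 pairs. Member and neighbour were higher in the same cell type in 72 of 121 pairs, and in 18 of the 22 head-to-head pairs. Across samples the median Spearman correlation was 0.026 in cTECs and 0.092 in mTECs. Over the 22 head-to-head pairs it was 0.026 and −0.095. Gm26735, opposite Sox4, had correlations of 0.663 and 0.715 with it over 28 samples, which share library and depth with each other, and the pair shares sequence on opposite strands. Gm48898 and its neighbour Gdf7, a growth factor of the BMP family, both had higher means in cTECs (6.37 and 3.43 FPKM) than in mTECs (0.417 and 0.0975).

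The members varied more between samples than protein-coding genes. The median coefficient of variation (SD over mean) over 28 samples was 0.691 in cTECs (104 members at 2 FPKM or more) and 0.755 in mTECs (120 members), against 0.369 and 0.391 for protein-coding genes at that level. Among genes at 2 to under 5 FPKM it was 0.823 and 0.876 for members and 0.635 and 0.701 for protein-coding genes. This match was on FPKM alone. The median exonic length was 1882 bases for members, against 3858 over all genes tested in cTECs and 3690 in mTECs. At equal FPKM a shorter gene has fewer counts, and the part of length was not tested. Within time points with 3 samples the median coefficient of the members was 0.530 and 0.646, so much of the variation was between samples of 1 time point. These samples differ in mouse and in library, and the parts of the 2 were not separated. AU020206 was the steadiest member in cTECs (0.203). Of the members at 2 FPKM or more, 35 were above 0 in every cTEC sample and 39 in every mTEC sample, and 11 and 16 were at 0 in 7 or more samples.

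Changes over time were tested with limma-voom over all expressed genes (mean FPKM of at least 0.5 in the cell type), which kept 136 members in cTECs, 137 in mTECs and 141 for the difference between cell types. To pass, a gene had to change 2-fold or more with an adjusted p (Benjamini-Hochberg) no higher than 0.01. In bulk samples, fewer cells of a type and less RNA per cell cannot be told apart.

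Between NPC and D-2, the comparison of the involuted thymus with controls, no member passed in limma-voom, in cTECs (0% of all genes passed) or in mTECs (0%). At an unadjusted p under 0.05 there were 10 members in cTECs (7.35%, against 9.87% of all genes) and 22 in mTECs (16.1% against 12.8%). The edgeR quasi-likelihood test also called 0 in both, and DESeq2 called 0 in cTECs and 3 in mTECs (Gm12840, Gm43055 and Malat1), with 0.568% and 0.964% of all genes. Without NPC replicate 3, the library low in mt-Rnr2 in both cell types, limma-voom still called 0 members, and 11 and 29 had an unadjusted p under 0.05. The median log2 fold change of the members was 0.32 in cTECs and 0.46 in mTECs, beside 0.03 and 0.17 over all genes tested.

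Between D-2 and D6, when regeneration is under way, no member passed in limma-voom either. Of all genes, 1.34% passed in cTECs and 0.299% in mTECs. At an unadjusted p under 0.05 there were 29 members of 136 in cTECs (21.3%, against 23.3% of all genes) and 35 of 137 in mTECs (25.5% against 20.3%). Those with the smallest adjusted p were lower at D6 in both cell types: in cTECs 6030407O03Rik (log2 fold change −1.73, standard error 0.33, adjusted p = 0.0183) and A730020M07Rik (−2.29, 0.44, adjusted p = 0.0185), and in mTECs Malat1 (−2.18, 0.37, adjusted p = 0.0173) and Neat1 (−1.24, 0.22, adjusted p = 0.0198). At an adjusted p of 0.05, 7 members in cTECs (5.15%, against 4.35% of all genes) and 6 in mTECs (4.38% against 1.45%) would have passed. DESeq2 called 7 members in cTECs (5.15% against 4.80%) and 9 in mTECs (6.57% against 2.62%). The edgeR quasi-likelihood test called 0 in cTECs (1.87% of all genes) and 2 in mTECs (1.46% against 0.513%). Without D6 replicate 3, the cTEC library low in mt-Rnr2, 0 members passed in cTECs (0.852% of all genes), and in mTECs no such library enters this comparison. With the replicate block, 1 member passed in cTECs (Gm12840, 0.735% against 1.06% of all genes). In mTECs 2 passed (Gm42418 and Malat1, 1.46% against 0.507%), and the replicate numbers did not pair the samples. In the test of whether the D6 to D-2 change differed between cTECs and mTECs, no member passed in limma-voom (0.00544% of all genes did), 19 had an unadjusted p under 0.05 (13.5%, against 12% of all genes), edgeR called 0 and DESeq2 1 (5730419F03Rik; 0.636% of all genes). Without the library low in mt-Rnr2 limma-voom again called 0.

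Malat1 varied over the time points in mTECs. Its FPKM was 375, 254 and 329 in the NPC samples and 1535, 3588 and 849 at D-2. It was 334, 1678 and 433 at D0, 489, 245 and 367 at D3, 199, 255 and 276 at D6, and 389, 337 and 408 at D12. All 3 samples at D-2 were above every NPC, D3, D6 and D12 sample, and 1 sample of D0 was among them. Replicates 1 and 2 of D-2 also had the highest mt-Rnr2 of all mTEC libraries (6306 and 5729 FPKM), and replicate 3 had 3172. Gm42418 and Gm26917 together took 3.14%, 3.34% and 0.870% of the counts at D-2, and 2.17% in the high D0 sample. The part of such library differences in the level of Malat1 was not tested. Over the 6 time points with replicates, Malat1 passed the F test of limma-voom in mTECs with a range of 2.15 on the log2 scale (adjusted p = 0.00919; 3 of 137 members passed, against 0.766% of all genes). The adjusted p was 0.00918 with edgeR and 2.06e-06 with DESeq2, and it missed the threshold with sample quality weights (0.0412), without TMM (0.0111) and without the libraries with few genes (0.0129). Leaving out 1 of the 18 samples at a time, the call was kept in 4 fits and lost in 14, with an adjusted p of 0.00323 to 0.0328, the highest without D-2 replicate 1. Without the libraries low in mt-Rnr2 the limma-voom adjusted p was 0.00399, and without those with few genes as well it was 0.00541. In cTECs the D-2 samples were at 367, 496 and 579 FPKM, within the range of NPC (527, 1063 and 199), and at D6 they were at 376, 204 and 168. No member passed the F test in cTECs (1.02% of all genes did). There 19 members had an unadjusted p under 0.05 (14.0%, against 16.9% of all genes), edgeR called 0 and DESeq2 1 (Gm12840; 2.98% of all genes). Without the cTEC libraries low in mt-Rnr2, 0 members passed and 1.56% of all genes.

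Gm20186 and Gm43055 were the other members to pass over the 6 time points in mTECs. The level of Gm20186 depends on how reads were assigned between it and the overlapping lincRNA Gm26809. Gm20186, which starts head to head with Lsm8, a gene of the RNA-binding LSM complex of spliceosomes, was at 31.7, 33.4 and 42.2 FPKM in NPC, at 61.3, 56.2 and 53.8 at D-2 and at 35.9, 31.3 and 39.0 at D0. It was at 52.7, 77.7 and 79.4 at D3, at 27.98, 30.2 and 32.1 at D6 and at 57.0, 17.2 and 19.3 at D12. The samples of D-2 and D3 did not overlap with those of NPC, D0 and D6 (limma-voom range 1.79 on the log2 scale, adjusted p = 0.00838). Of the 3 mTEC libraries of D3, 2 had few genes and the other was low in mt-Rnr2. Without the mTEC libraries low in mt-Rnr2 the limma-voom adjusted p was 0.00483, and without those with few genes as well it was 0.0210. Without the libraries with few genes the adjusted p was 0.0246. It also missed the threshold with the replicate block (0.0228), with edgeR (0.292) and with DESeq2 (0.0547), and it was kept in 3 of the 18 fits that left out 1 sample (0.00222 to 0.0489, the highest without D12 replicate 2). Gm12840, which shares sequence with it, was at 163, 75.8 and 95.4 FPKM at D-2 and at 27.6, 32.4 and 26.6 at D6 in mTECs (F test adjusted p = 0.0160).

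Gm43055, most of which lies in exons of Ythdc1, was at 28.5, 11.9 and 13.7 FPKM in mTECs at D-2 and at 7.88, 2.11 and 6.04 at D0. All NPC, D6 and D12 samples were listed at 0, and D3 had 24.2 in 1 sample and 0 in the others. The D24 sample, which is not in this test, had 23.4. Samples with reads and samples at 0 thus formed separate time points except at D3 (limma-voom adjusted p = 0.00226). The call was kept in all 18 fits that left out 1 sample, while DESeq2 (0.165) and edgeR (0.0891) did not call it. In cTECs its values ran from 0 to 26.96 with no such pattern.

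**Figure D3:**
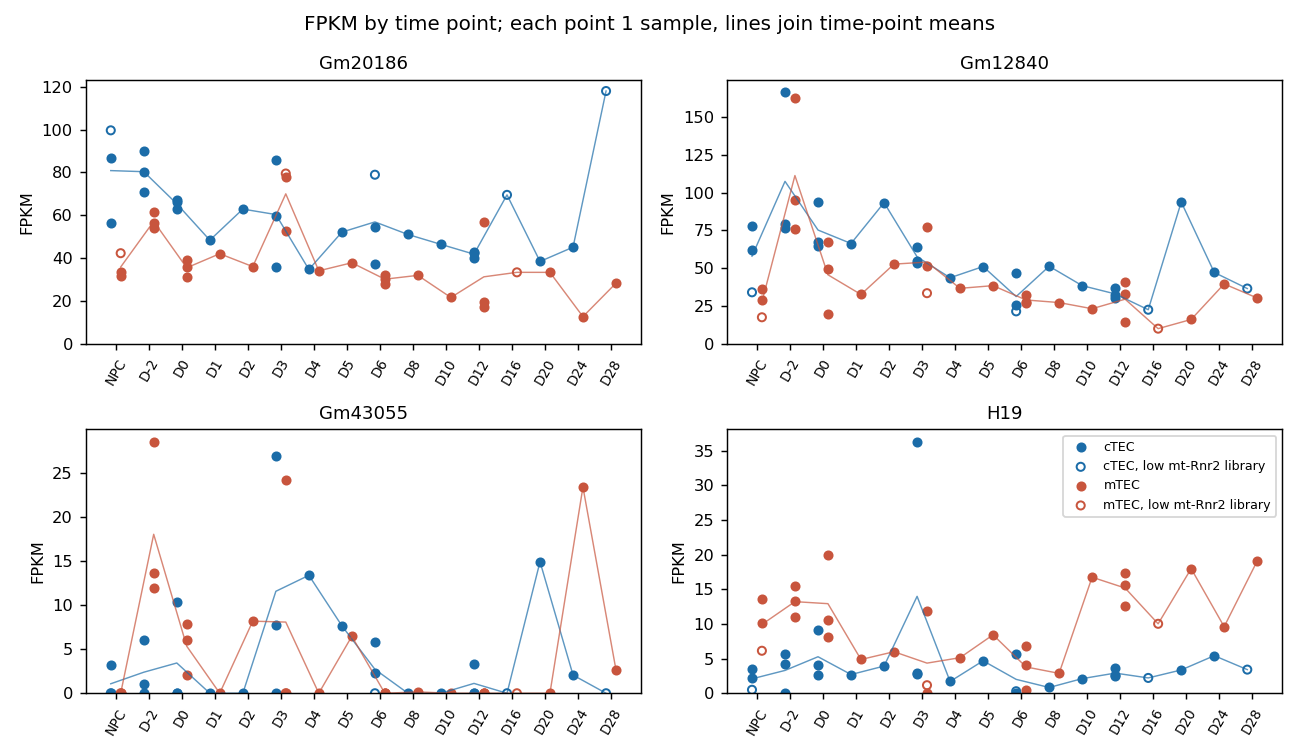
FPKM of Gm20186, Gm12840, Gm43055 and H19 by time point, each point 1 sample and each line through the time-point means, cTECs in blue and mTECs in red, with open circles for the 7 libraries low in mt-Rnr2. In mTECs Gm12840 has its highest mean at D-2 (75.8 to 163 FPKM), and Gm43055 is at 11.9 to 28.5 at D-2 and at 23.4 in the single D24 sample.

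H19 in mTECs was at 10.9, 15.5 and 13.3 FPKM at D-2, at 6.85, 0.48 and 4.05 at D6 and at 15.7, 12.5 and 17.4 at D12. Its D6 samples did not overlap with those of D-2 or D12, but the F test missed the threshold (adjusted p = 0.0119). H19 passed it without the libraries low in mt-Rnr2 (limma-voom adjusted p = 0.00600), but not without those with few genes as well (0.0137). With the libraries low in mt-Rnr2 left out, 14 members passed the F test in mTECs (10.2%) and 809 of all genes (4.56%), in place of 3 and 136. Of these 14, 7 had their highest mean at D-2, 4 at D12, 2 at D3 and 1 at D0, and 5 had their lowest mean at D3, when 2 mTEC libraries of few genes remained. With those left out too, no D3 sample remained, and over the other 5 time points 5 members passed (3.65%, against 1.79% of all genes): Malat1, Neat1, Gm12840, Gm43055 and Epb41l4aos. Neat1 then had its highest mean at D-2 (31.8, 20.8 and 22.4 FPKM) and its lowest at D6 (12.2, 12.9 and 9.02), with no overlap (adjusted p = 0.00795).

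Between early and late regeneration, 2 members were higher in cTECs, both nuclear lincRNAs. Neat1 was at 122 FPKM in the D16 sample, and D20, D24 and D28 had 23.5, 36.7 and 172.5, with 4.56 to 59.4 (median 15.8) in the 18 early ones. The late samples at D16 and D28 were above every early one and the others overlapped with the early range. The log2 fold change was 1.82 (standard error 0.31, limma-voom adjusted p = 0.00114), and 1.14% of all genes rose in this comparison. Xist had 161, 24.2, 64.9 and 188 in the same order, against 6.76 to 125.7 (median 26.4) in early samples. Again D16 and D28 were above all early samples, and D20 was below the early median (log2 fold change 1.08, standard error 0.25, adjusted p = 0.00952).

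D16 and D28 are both among the libraries low in mt-Rnr2. Without the 4 such cTEC libraries, the log2 fold change was 0.87 for Neat1 (limma-voom adjusted p = 0.0238) and 0.53 for Xist (adjusted p = 0.138). No member then passed, and 0.637% of all genes did. Without D28 alone, Neat1 had 1.29 (adjusted p = 0.0194) and Xist 0.83 (adjusted p = 0.0800), and without D16 alone Neat1 passed and Xist did not (0.91, adjusted p = 0.0440). With D12 counted as late neither passed (Neat1 1.19, adjusted p = 0.156). Summed FPKM of 5 fibroblast and pericyte markers was 287 to 668 in late cTECs and 68.6 to 345 in early ones. Most of it was Dcn (mean 462 late and 186 early), followed by Col3a1 (45.4 and 16.1). Pdgfra, Pdgfrb and Col1a1 had means of at most 1.41 in either phase. The part of these markers in the result was not tested. Genes above 0 FPKM numbered 13458 to 20416 in late and 10479 to 21943 in early cTEC libraries. The 180 genes that rose in late cTECs had a median exonic length of 5955 bases, against 3858 over all genes tested, and Neat1 and Xist are among the longest members.

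In mTECs, Mir142hg and Neat1 were higher in late regeneration, as were 0.0564% of all genes. Mir142hg, whose spliced exons have only 269 bases, had 10.3, 8.16, 26.7 and 16.6 FPKM in the late samples in time order. The 18 early samples ran from 0 to 4.75 (median 0.515), with 8 at 0, so the groups did not overlap. The log2 fold change was 4.17 (standard error 0.68, limma-voom adjusted p = 0.00570). Values of this order also occurred in 1 NPC sample (0, 14.5 and 3.47) and 1 D-2 sample (8.09, 3.21 and 0.22). Without the libraries low in mt-Rnr2 it was 4.46 (adjusted p = 0.00724), and without D24 the call was lost (adjusted p = 0.0214). The edgeR quasi-likelihood test did not call it (adjusted p = 0.192), nor did DESeq2 (3.77, unadjusted p = 0.00217, with no adjusted p given), and with D12 counted as late it was 2.94 (limma-voom adjusted p = 0.0301). In cTECs Mir142hg was at 6.69, 0, 5.40 and 1.71 in the late samples and at 0 to 12.3 in the early ones.

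Because miR-142 is known from blood cells, markers of other cell types are given beside it. In mTECs, 8 macrophage and dendritic cell markers summed to 76.0 to 207 FPKM in the late samples and 14.7 to 122 in the early ones, most of it Lyz2 (mean 87.0 and 44.6). The pan-leukocyte gene Ptprc was at 0.1 to 2.1 in late and 0 to 8.33 in early mTECs, and 12 thymocyte markers summed to 41.3 to 59.6 and 20.6 to 99.4. Their part in the level of Mir142hg was not tested.

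Neat1 in late mTECs had 176, 39.4, 48.2 and 27.1 FPKM in the same order, against 9.02 to 59.4 (median 14.1) in early samples. Apart from the low mt-Rnr2 library D3 replicate 3, which was at 59.4, every late sample was above every early one, the next early value being 21.8. The log2 fold change was 1.68 (standard error 0.29, adjusted p = 0.00618). It was 1.17 without the libraries low in mt-Rnr2 (limma-voom adjusted p = 8.62e-05). Without D16 alone, which leaves D3 replicate 3 in, it was 1.09 (adjusted p = 0.0177), and without D24 the adjusted p was 0.0118. It was 0.0133 without the mTEC libraries with few genes, D3 replicates 1 and 2, and 0.0334 with D12 counted as late. Xist, at 168, 43.8, 60.6 and 33.3 FPKM in late mTECs against 20.9 to 110.3 in early ones, overlapped between the phases (0.74, adjusted p = 0.0736). Meg3 was at 3.68, 11.97, 12.2 and 4.40 in late mTECs and at 0 to 8.78 (median 0.345) in early ones, and did not pass (2.22, standard error 0.74, adjusted p = 0.0958).

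**Figure D4:**
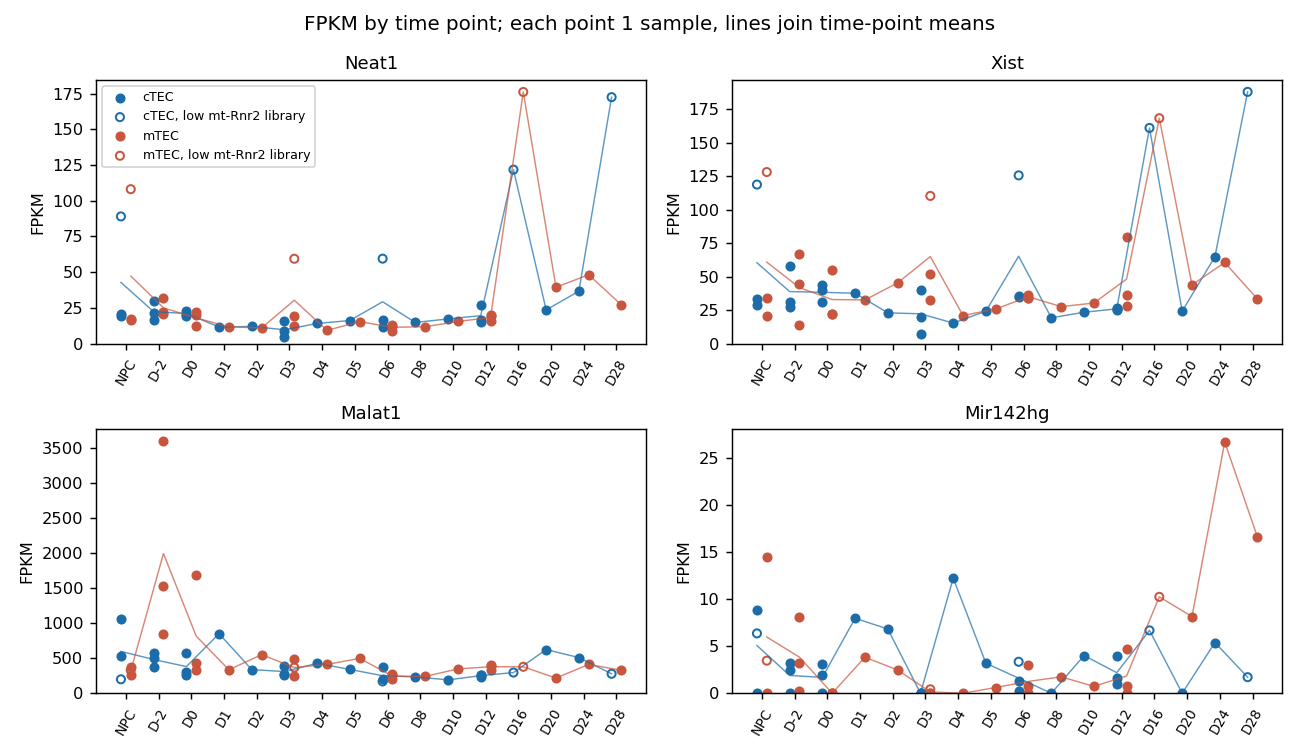
FPKM of Neat1, Xist, Malat1 and Mir142hg by time point, each point 1 sample and each line through the time-point means, cTECs in blue and mTECs in red, with open circles for the 7 libraries low in mt-Rnr2. The highest Neat1 and Xist values are open circles, Malat1 is highest in mTECs at D-2 (849 to 3588 FPKM), and Mir142hg is at 8.16 to 26.7 FPKM in late mTECs, where 1 NPC sample (14.5) lies in the same range.

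Genes of proteins that work with these RNAs did not pass in any comparison of 2 groups or in the test of the difference between cell types. Of 15 paraspeckle proteins, which bind Neat1, none was called in limma-voom, and their median log2 fold change was 0.53 at D6 against D-2 in cTECs and 0.36 in mTECs, and −0.07 and −0.04 in late against early. Of 15 partners of Xist, none was called (medians 0.27 and −0.10 at D6 against D-2, 0.09 and 0.04 in late against early). Of 7 genes of nuclear polyadenylation and RNA decay, none was called. The smallest adjusted p in these lists was 0.0142, for a partner of Xist in late against early cTECs.

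**Figure D5:**
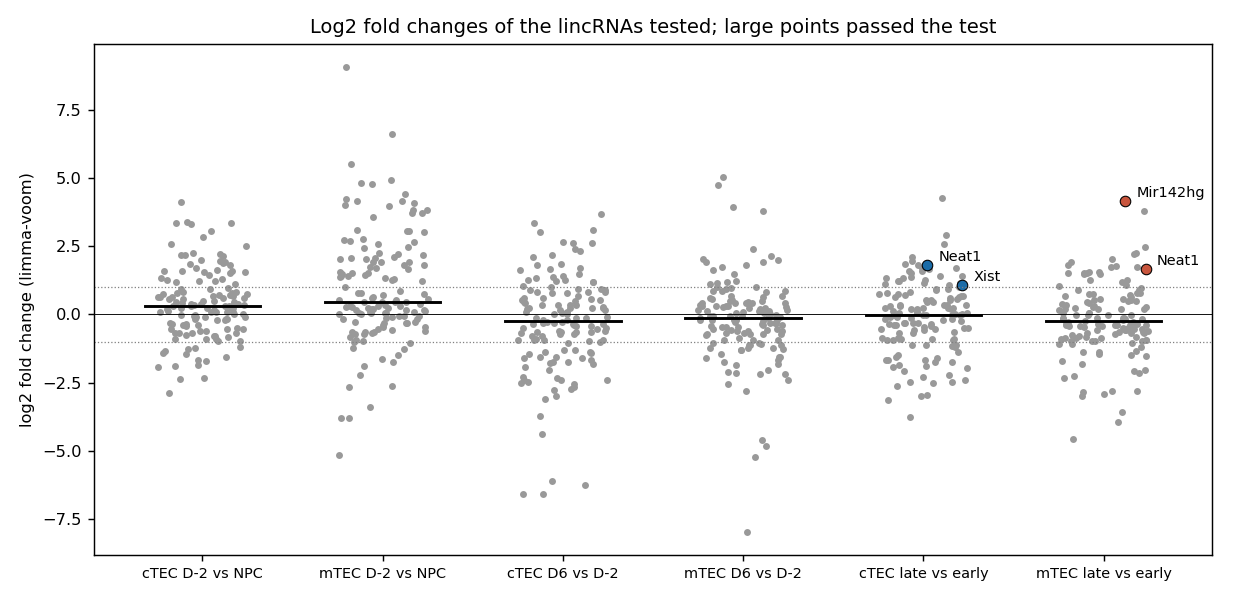
Log2 fold change (limma-voom) of each lincRNA tested in the 6 comparisons within a cell type (x axis), with the median as a bar, zero as a solid line and the 2-fold limits dotted. Grey points did not pass, and the 4 coloured ones did: Neat1 (1.82) and Xist (1.08) in late cTECs, and Mir142hg (4.17) and Neat1 (1.68) in late mTECs.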

How the data were processed

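RNA of 56 samples was analysed, 28 per cell type. The authors trimmed reads with Trimmomatic 0.35, aligned them to GRCm38 with STAR 2.5.1b and quantified genes with RSEM 1.2.28. The deposited expected counts are RSEM estimates that are not normalized, and RSEM scaled the deposited TPM and FPKM from them, by length and library size. FPKM gave levels, and TPM was used only to repeat the selection. The annotation release and strand setting are not given in the sources used here. Gene types came from GENCODE M21 (50376 of 50600 identifiers matched).

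Expected counts were rounded and tested in R 4.3.3 with limma 3.58.1 (voom) after TMM scaling by edgeR 4.0.16. Alternatives were edgeR's quasi-likelihood test, DESeq2 1.42.0, no TMM, no filter, sample quality weights, an adjusted p of 0.05, a replicate block, samples left out in turn and D12 counted as late. Leaving out libraries low in mt-Rnr2 or in genes was chosen after seeing the data. Sequences were compared with BLAST+ 2.17.0. The model was tested on simulated counts. Replicates within groups (36 pairs) differed by more than sampling noise. One marker list is not reported here.

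Replicate numbers did not pair samples of different time points (correlation of deviations −0.121 to 0.0355). For cTEC and mTEC samples with the same number in their titles it was 0.00888 to 0.0548. Whether these came from the same mouse is not given in the sources used here. The main test of the difference between cell types treated all its samples as independent, and with the same-numbered samples as a block limma-voom also called 0 members. P-values measure the spread between samples, in which mouse and library are not separated. In late against early this spread also holds differences between the time points of a phase. Total counts, 4561207 to 108547384, limit the precision of low levels.

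The members and gene lists were chosen with earlier results of these data known. Members named are the 10 highest per cell type, the 6 most skewed each way, those that passed a test, those with textbook roles, those at the limit of selection and those beside a TEC marker gene. Members named outside this rule are microRNA hosts, overlapping genes, those without overlap between cell types or apart in the 7 libraries, and those with the smallest p or called only by an alternative, and they were chosen after their values were seen.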

Additional observations from a re-analysis of the deposited data

Results flagged for a closer look

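Among the named members, each group of 4 late samples was checked for a sample far from the others (Dixon's 95% test), which chance gives in about 1 of 20 groups. It was found in 16 of 72 groups, but these share the same 8 libraries, and a group with 3 samples at 0 meets the test at any value, so the rate of 1 in 20 is no measure for this number. In mTECs, D16 was far above the other late samples for Neat1 (176.13 FPKM), Gm13391 (41.42), Gm29461 (34.30), Gm11290 (0.90) and 2310065F04Rik (0.25), and the last 2 were listed at 0 in the other 3 samples. D16 is the late mTEC library low in mt-Rnr2. mTEC D24 was far above for Gm43055 (23.40), Bvht (16.15) and Gm44956 (2.12), and far below for Gm14275 (0, against 24.4 to 26.7). mTEC D28 was highest for Gm10076 (282.48) and lowest for Snhg6 (21.12). In cTECs, D20, a library with few genes, was highest for 2900097C17Rik (94.47) and Gm43055 (14.92) and lowest for Gm29461 (0). cTEC D16 was lowest for Gm10076 (95.77) and cTEC D28 highest for Gm13028 (1.26, with 0 in the other late samples).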

How the results depend on the processing

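The number of members (141) was 236 at a limit of 1 FPKM and 84 at 4. In brackets, the share of members called is set against the share of all genes tested. DESeq2 called 7 members in cTEC D6 vs D-2 (5.15% against 4.8%), 9 in mTEC D6 vs D-2 (6.57% against 2.62%) and 3 in mTEC D-2 vs NPC (2.19% against 0.964%). It called 1 in mTEC late vs early (0.73% against 0.113%) and 1 for the difference between cell types (0.709% against 0.636%). Over 6 time points it called 1 in cTECs (0.735% against 2.98%) and 5 in mTECs (3.65% against 2.3%). edgeR called 2 (mTEC D6 vs D-2, 1.46% against 0.513%), 1 (cTEC late, 0.735% against 0.284%), 0 (mTEC late, against 0.0113%) and 1 (mTECs over 6 time points, 0.73% against 0.147%). An adjusted p of 0.05 gave 7 and 6 for D6 vs D-2 (5.15% against 4.35% in cTECs, 4.38% against 1.45% in mTECs). It gave 8 (cTEC late, 5.88% against 4.08%), 6 (mTEC late, 4.38% against 1.04%) and 9 (mTECs over 6 time points, 6.57% against 4.53%). Without the filter there were 3 and 1 for D6 vs D-2 (2.14% against 1.66% in cTECs, 0.709% against 0.401% in mTECs). There were 1 (mTEC D-2 vs NPC, 0.714% against 0.0933%), 0 (cTEC late, against 0.589%) and 4 (mTEC late, 2.84% against 0.456%). Sample quality weights gave 5 (mTEC D6 vs D-2, 3.65% against 1.61%), 14 (cTEC late, 10.3% against 6.6%) and 0 (mTECs over 6 time points, against 0.0395%). No TMM gave 4 (cTEC late, 2.94% against 1.75%). The replicate block gave 1 and 2 for D6 vs D-2 (0.735% against 1.06% in cTECs, 1.46% against 0.507% in mTECs). It changed no other count of members by over 1.5 times, though in mTECs over 6 time points it called Gm12840 in place of Gm20186. Counting D12 as late gave 0 in cTECs (against 0.0%) and 1 in mTECs (0.73% against 0.896%), which was Gm42047, while Mir142hg and Neat1 were lost. Without libraries of few genes there were 7 (cTEC late, 5.15% against 2.08%) and 1 (mTEC late, 0.73% against 0.0282%). Without those low in mt-Rnr2 there were 0 (cTEC late, against 0.637%) and 14 (mTECs over 6 time points, 10.2% against 4.56%). Without both there were 5 in mTECs (3.65% against 1.79%), over 5 time points since no mTEC D3 library was left. The causes were not tested. Leaving out 1 sample in turn gave 0 to 6 members (cTEC late), 0 to 2 (mTEC late), 0 to 1 (mTEC D6 vs D-2) and 1 to 8 (mTECs over 6 time points). The 6 without cTEC D20 were 4.41% of members, against 1.32% of all genes. The 8 without mTEC NPC replicate 3 were 5.84% against 3.38%. Direction was followed in selected comparisons of 2 groups for Neat1, Xist, Mir142hg, Malat1, Gm12840, Gm20186, Gm43055 and Gm42418, and none reversed. The other named members were not checked for this, and the range of an F test has no direction. With 4 late samples, 1 per time point, and 3 samples elsewhere, low members could not be followed: those at 0 in many samples have wide errors.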
